A study of Mus musculus with 4 samples.

Results

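The 10 genes described here are transcriptional targets of p53 that act in growth arrest and in feedback on p53, together with the p53 gene itself. They were chosen by symbol (Cdkn1a, Phlda3, Aen, Mdm2, Ccng1, Trp53inp1, Zmat3, Btg2, Sesn1 and Trp53), and all 10 were among the 23284 gene symbols of the deposited tables. RNA was sequenced from EGFP+ cells recovered from single recipient mice 24 h after transplantation. The donor cells were LSK cells (lineage-negative, Sca1+ and c-Kit+), the marrow fraction that holds stem and multipotent progenitor cells, taken from CAG-EGFP mice, in which a ubiquitous promoter drives EGFP. The 5-FU recipients (2 libraries) were wild-type mice given 5-fluorouracil intravenously at 200 mg/kg 2 days before the transplant, and the control recipients (2 libraries) were wild-type mice without that treatment. Each recipient of either group received 100000 LSK cells, and the sources used here state neither age nor sex. Each library is taken as 1 recipient, and the labels number them as replicates.

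The p53 protein is a transcription factor that is held at a low level by the ubiquitin ligase MDM2 and is stabilised after DNA damage or ribosomal stress. Stabilised p53 induces p21, the product of Cdkn1a, which stops the cell cycle, and it also induces Mdm2, which closes a negative feedback loop. Because p53 is controlled mainly at the protein level, the Trp53 transcript does not measure its activity. In hematopoietic stem cells the pathway is known for its part in quiescence and in the response to genotoxic drugs.

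Of the 10 genes, Cdkn1a, Phlda3 and Aen rose in cells from 5-FU recipients, Btg2 and Sesn1 fell, and Mdm2, Ccng1, Trp53inp1, Zmat3 and Trp53 did not pass the test (limma on log2(FPKM + 1), adjusted p under 0.05). Cdkn1a averaged 71.7 ± 10.6 FPKM in 5-FU recipients and 4.10 ± 1.01 FPKM in control recipients (SD, n = 2 each), a ratio of means of 17.5. FPKM is a read count divided by transcript length and library size. Over all 11496 tested genes, 8.23% were called higher, 4.67% lower and 12.9% in either direction. The 10 targets were chosen with earlier results of these data known, so a comparison with these shares is not independent. Of the 10 targets 5 were called. That count fell to 2 (Cdkn1a and Phlda3) when either control replicate was left out, and to 0 without a filter on low values. Phlda3 and Zmat3 reached the filter of 1 FPKM in at least 2 libraries only with the help of the 5-FU libraries, so their presence among the tested genes already depended on being high there. The other 8 passed it on the control libraries alone. The groups did not overlap for any of the 10 genes, with 7 above and 3 below the controls. Of all tested genes 31.4% lay above, 30.7% below and 62.2% in either direction, so for these genes the separation alone says little. In bulk samples fewer cells of a type and less RNA per cell cannot be told apart.

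**Figure D1:**
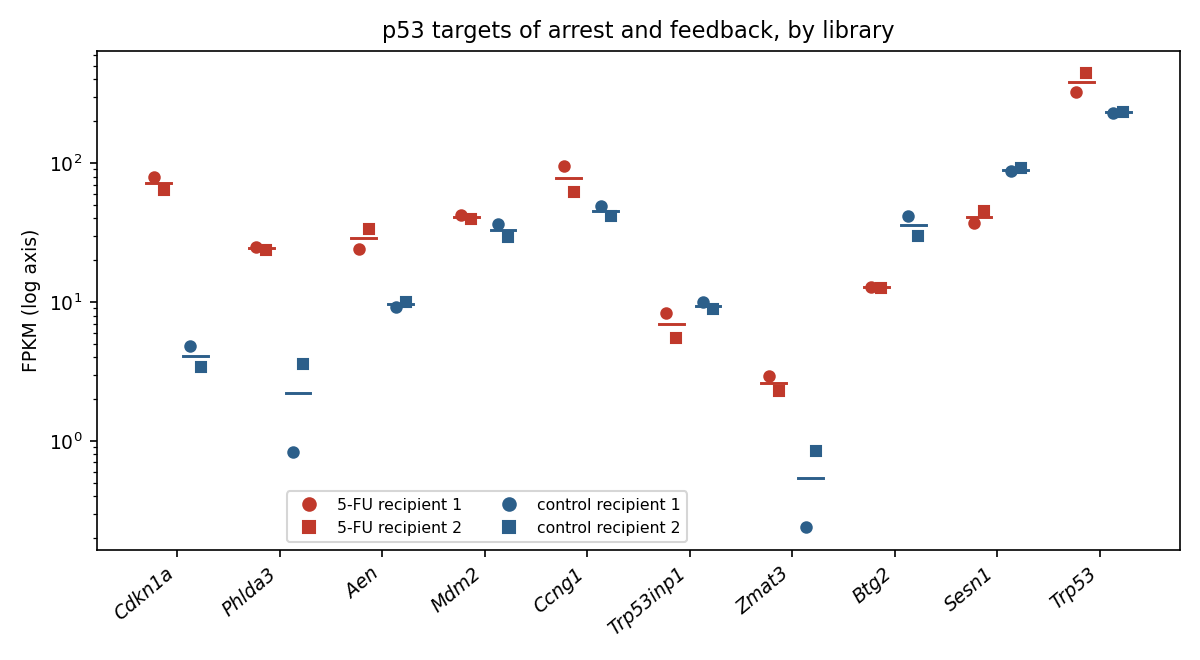
FPKM on a log axis for the 10 genes in each library; red marks are 5-FU recipients 1 (circle) and 2 (square), blue marks control recipients 1 and 2, and short lines are group means. Cdkn1a and Phlda3 show the widest gaps, with 5-FU libraries at 79.2 and 64.2 FPKM for Cdkn1a against 4.82 and 3.38 FPKM in controls.

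The promoters of the 5 genes that passed the test are shown because these genes moved in opposite directions although all are p53 targets. Of the 2 windows each of Cdkn1a and Sesn1, the one printed is the one that holds a p53 decamer, and the other holds none. RefSeq windows (GRCm38.p6, from 250 bases before to 50 bases after the start site, 300 bases) were matched by symbol for 8 of the 10 genes, and 11 windows resulted because Cdkn1a, Aen and Sesn1 have 2 start sites each. They are written 5′ to 3′ on the strand of the gene, with matches in capitals to the p53 decamer (the canonical p53 consensus 10-mer), to the paired p53 core, to the cAMP response element TGACGTCA or to the forkhead motif GTAAACA.
Cdkn1a, upstream start, chr17:29090729-29091028, plus strand: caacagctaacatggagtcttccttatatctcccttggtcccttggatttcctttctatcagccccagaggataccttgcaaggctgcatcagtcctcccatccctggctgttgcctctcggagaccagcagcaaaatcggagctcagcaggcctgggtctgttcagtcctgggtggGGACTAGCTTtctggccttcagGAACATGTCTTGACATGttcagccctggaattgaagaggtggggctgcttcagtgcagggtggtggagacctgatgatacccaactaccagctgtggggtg
Phlda3, chr1:135765835-135766134, plus strand: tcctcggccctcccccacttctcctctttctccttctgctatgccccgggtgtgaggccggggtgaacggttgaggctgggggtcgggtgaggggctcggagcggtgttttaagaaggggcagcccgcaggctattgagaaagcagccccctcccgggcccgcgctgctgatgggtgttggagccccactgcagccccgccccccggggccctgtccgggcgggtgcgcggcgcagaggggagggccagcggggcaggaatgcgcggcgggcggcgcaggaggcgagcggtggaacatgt
Aen, upstream start, chr7:78895677-78895976, plus strand: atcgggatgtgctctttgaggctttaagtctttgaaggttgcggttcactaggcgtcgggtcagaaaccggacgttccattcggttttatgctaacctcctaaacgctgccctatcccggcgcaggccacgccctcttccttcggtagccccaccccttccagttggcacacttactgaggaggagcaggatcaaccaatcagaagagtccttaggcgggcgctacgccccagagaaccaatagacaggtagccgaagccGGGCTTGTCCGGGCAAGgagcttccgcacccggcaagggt
Btg2, chr1:134079106-134079405, minus strand: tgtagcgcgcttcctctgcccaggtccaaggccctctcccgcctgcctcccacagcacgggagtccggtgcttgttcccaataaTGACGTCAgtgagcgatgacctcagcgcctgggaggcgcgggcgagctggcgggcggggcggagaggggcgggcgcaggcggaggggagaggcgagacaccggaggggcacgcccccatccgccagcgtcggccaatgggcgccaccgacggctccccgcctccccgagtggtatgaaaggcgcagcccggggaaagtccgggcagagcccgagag
Sesn1, downstream start, chr10:41887189-41887488, plus strand: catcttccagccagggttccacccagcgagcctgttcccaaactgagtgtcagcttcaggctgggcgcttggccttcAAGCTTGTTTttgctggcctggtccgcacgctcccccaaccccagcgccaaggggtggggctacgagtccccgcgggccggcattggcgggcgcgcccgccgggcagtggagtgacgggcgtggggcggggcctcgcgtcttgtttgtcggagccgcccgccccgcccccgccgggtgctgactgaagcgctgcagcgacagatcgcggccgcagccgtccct

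All 4 motifs were searched on both strands, and the p53 decamer and paired core read the same way on each. A p53 decamer occurred in 8.36% of the 32851 promoter windows of the table and in 7 of the 11 windows here, which belong to 6 genes (Cdkn1a, Aen, Mdm2, Ccng1, Sesn1 and Trp53). The paired core occurred in 7.22% of all windows and in those of Cdkn1a, Aen and Trp53. In Cdkn1a the paired core lay 48 bases before the upstream start, overlapped a decamer, and had a further decamer at 73 bases before the start. The pair of Aen windows overlap each other and hold the same match at bases 78895940 to 78895953 of chromosome 7. No mismatch was allowed, and the Phlda3 and Btg2 windows held no complete p53 decamer. Sites with a mismatch would have been missed. The Phlda3 window ends in letters that fit the start of a decamer, so its edge may cut through a match. Btg2 held the cAMP response element, which 1.79% of all windows held, and the upstream Sesn1 window and that of Mdm2 held the forkhead motif, which 3.65% held. The cAMP and forkhead motifs were picked after the windows had been read. These matches are descriptions of the letters in each window.

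Trp53 itself was the most abundant of the 10 transcripts in both groups. It lies on chromosome 11 at 69580348 to 69591873. Its level was 326.1 and 442.3 FPKM in 5-FU recipients 1 and 2, against 228.3 and 235.1 FPKM in control recipients 1 and 2. Both 5-FU libraries were above both controls, and the 5-FU pair was wider apart than the control pair. Trp53 had a log2 fold change of 0.71 (SE 0.22, limma adjusted p = 0.074), so the call was not made. It was 0.93 without 5-FU replicate 1, 0.49 without 5-FU replicate 2, and 0.69 and 0.73 without control replicates 1 and 2 in turn. A fit with 1 library left out takes its spread within groups from the other group's pair alone. Adjusted p values of such fits, where given below, therefore depend on which pair remains.

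Mdm2 and Ccng1 represent the feedback arm. Mdm2 encodes the ubiquitin ligase that degrades p53, and it had 42.4 and 39.4 FPKM in 5-FU recipients against 36.5 and 29.5 FPKM in control recipients. The gap between groups was of the size of the spread within the control pair, with a log2 fold change of 0.31 (SE 0.21, limma adjusted p = 0.34). It was 0.46 without control replicate 1 and 0.16 without control replicate 2, and neither passed. Ccng1 encodes cyclin G1, a p53-induced partner of the phosphatase PP2A that acts on MDM2. Its level was 95.0 and 61.8 FPKM in 5-FU recipients, against 49.3 and 41.8 FPKM in control recipients, so 5-FU recipient 1 stood clear of the other 3 libraries. The log2 fold change of Ccng1 was 0.74 (SE 0.25, adjusted p = 0.086 in limma), and the value depended on which 5-FU library was kept. It was 1.05 without 5-FU replicate 2 (adjusted p = 0.0051) and 0.44 without 5-FU replicate 1 (adjusted p = 0.096). Without control replicates 1 and 2 in turn it was 0.86 and 0.63.

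Relative to Trp53 within the same library, the feedback genes did not separate the groups. Mdm2 had 13.0 and 8.91 FPKM per 100 FPKM of Trp53 in 5-FU recipients, against 16.0 and 12.6 in control recipients. For Ccng1 the corresponding ratios were 29.1 and 14.0 in 5-FU recipients and 21.6 and 17.8 in control recipients. Such ratios do not depend on how the libraries were scaled. By contrast, Cdkn1a had 24.3 and 14.5 FPKM per 100 FPKM of Trp53 in 5-FU recipients, against 2.11 and 1.44 in control recipients. Cdkn1a was also higher than Mdm2 in both 5-FU libraries, at 186.8 and 163.0 FPKM per 100 FPKM of Mdm2, against 13.2 and 11.5 in control recipients.

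**Figure D2:**
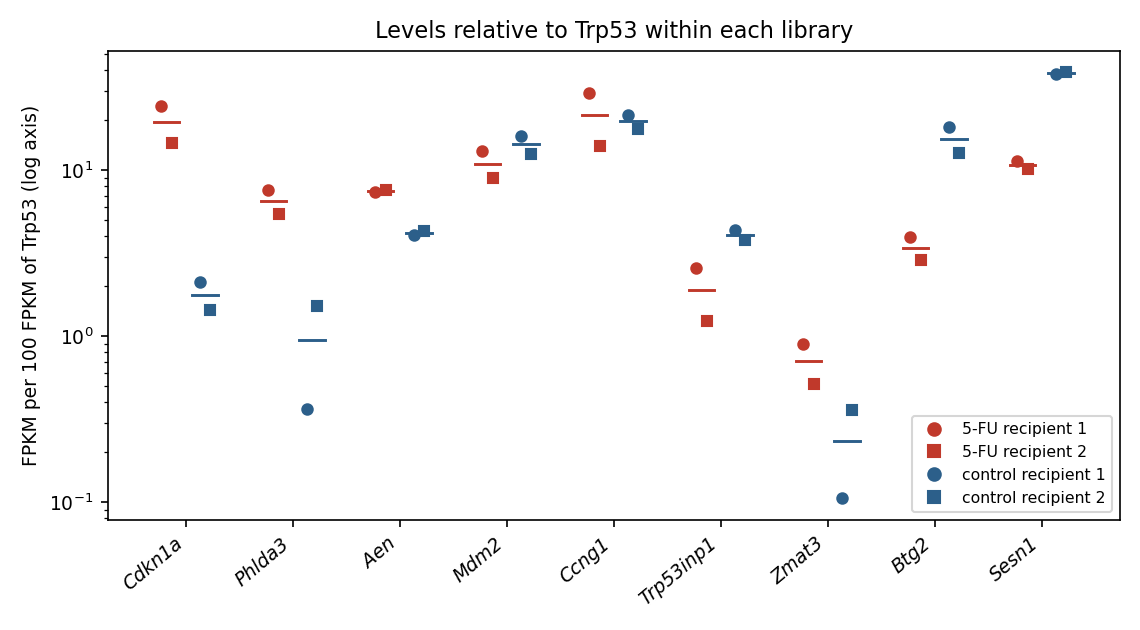
FPKM of 9 targets per 100 FPKM of Trp53 in the same library, on a log axis; red marks are 5-FU recipients, blue marks control recipients, and short lines are group means. Cdkn1a, Phlda3, Aen and Zmat3 lie above the controls, Btg2, Sesn1 and Trp53inp1 below them, and Mdm2 and Ccng1 overlap.

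The arrest genes Cdkn1a and Btg2 moved apart. Cdkn1a, on chromosome 17 at 29090979 to 29100722, encodes p21, the inhibitor of cyclin-dependent kinases. Its level was 79.2 and 64.2 FPKM in 5-FU recipients against 4.82 and 3.38 FPKM in control recipients. The 4 possible ratios of a 5-FU library to a control library ran from 13.3 to 23.4. Within each library it stood above 88.5% and 84.7% of tested genes in 5-FU recipients, and above 25.4% and 18.2% in control recipients. By mean level among the 10 genes it was number 3 in 5-FU recipients and number 8 in control recipients. Its log2 fold change was 3.84 (SE 0.25, limma adjusted p = 0.00057) and stayed between 3.64 and 4.04 when any 1 library was left out. Without a filter on low values its adjusted p was 0.054.

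Btg2, on chromosome 1 at 134074865 to 134079155, encodes an antiproliferative protein that binds the CCR4-NOT deadenylase. It is also an immediate early gene, switched on within minutes by growth factors or handling. It had 12.9 and 12.7 FPKM in 5-FU recipients against 41.8 and 29.8 FPKM in control recipients, with close values in the 5-FU pair and a wider gap in the control pair. Btg2 had a log2 fold change of −1.40 (SE 0.24, limma adjusted p = 0.016). The call was lost without control replicate 1 (−1.16, adjusted p = 0.15) and without control replicate 2 (−1.63, adjusted p = 0.058). Of 16 immediate early genes 10 fell, none rose and 6 did not pass, where 4.67% of all tested genes were called lower. Their median log2 fold change was −1.12, against −0.01 over all tested genes. Examples were Fosb, a subunit of AP-1, with 4.21 and 2.74 FPKM in 5-FU recipients against 22.7 and 17.4 FPKM in control recipients, and Ppp1r15a, a phosphatase subunit of the stress response, with 12.4 and 12.2 FPKM in 5-FU recipients against 42.9 and 43.5 FPKM in control recipients. Their part in the fall of Btg2 was not tested.

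Phlda3 and Sesn1 act on the AKT and mTOR pathway, and they too moved apart. Phlda3, on chromosome 1 at 135766085 to 135769134, encodes a small pleckstrin-homology protein that competes with AKT for membrane lipids. It had 24.9 and 23.9 FPKM in 5-FU recipients against 0.827 and 3.58 FPKM in control recipients. The 5-FU pair was even and the control pair was not. For Phlda3 the log2 fold change was 3.13 (SE 0.42, limma adjusted p = 0.011). It was 2.47 without control replicate 1 and 3.80 without control replicate 2. Phlda3 was among the tested genes only with the help of its high 5-FU values. Without a filter on low values its limma adjusted p was 0.083, and the call was lost. Phlda3 and Btg2 start 1.69 Mb apart on chromosome 1, on opposite strands, and moved in opposite directions.

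Sesn1, on chromosome 10 at 41810574 to 41908436, encodes sestrin 1, which restrains mTORC1, and is induced by FOXO factors as well as by p53. It had 37.0 and 44.9 FPKM in 5-FU recipients against 87.1 and 91.6 FPKM in control recipients, a gap far wider than either pair. Relative to Trp53 the separation was as clear, with 11.3 and 10.2 FPKM per 100 FPKM of Trp53 in 5-FU recipients against 38.2 and 39.0 in control recipients. Sesn1 fell by 1.11 on the log2 scale (SE 0.20, limma adjusted p = 0.017). Without control replicate 1 the log2 fold change was −1.15 (adjusted p = 0.13) and without control replicate 2 it was −1.08 (adjusted p = 0.16), so the call was lost in both cases while the size hardly moved. Of 15 FOXO targets other than Sesn1, 4 fell, none rose and 11 did not pass, with a median of −0.60. Of all tested genes 4.67% were called lower. The 4 were Klf2, Pik3ip1, Ccng2 and Txnip. Klf2, a quiescence-associated transcription factor, had 34.4 and 25.3 FPKM in 5-FU recipients against 123.6 and 117.7 FPKM in control recipients. Pik3ip1, Ccng2 and Txnip fell by 1.46, 1.36 and 1.23 on the log2 scale. The part of FOXO factors in the fall of Sesn1 was not tested.

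Aen, Zmat3 and Trp53inp1 encode proteins of RNA and DNA turnover, cell death and stress. Aen, on chromosome 7 at 78895927 to 78911209, encodes an exonuclease that enhances apoptosis. Its level was 24.1 and 33.5 FPKM in 5-FU recipients against 9.22 and 10.1 FPKM in control recipients, and the lowest ratio of a 5-FU library to a control library was 2.39. The log2 fold change was 1.47 (SE 0.25, limma adjusted p = 0.016), and it was 1.41 without control replicate 1 (adjusted p = 0.11) and 1.53 without control replicate 2 (adjusted p = 0.081). Aen relative to Trp53 was even within groups, at 7.39 and 7.58 FPKM per 100 FPKM of Trp53 in 5-FU recipients against 4.04 and 4.29 in control recipients.

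Zmat3 encodes a zinc finger protein that binds RNA and controls splicing and mRNA stability. It was the least abundant of the 10, with 2.91 and 2.27 FPKM in 5-FU recipients against 0.241 and 0.843 FPKM in control recipients. Its log2 fold change of 1.24 (SE 0.35, limma adjusted p = 0.058) understates the ratio of means, 4.79, because 1 was added to low values. The fold change was 2.24 with a pseudocount of 0.1 and 0.46 with a pseudocount of 5, and it passed under quantile scaling alone of the scalings tried (1.42, adjusted p = 0.046). Trp53inp1 encodes a p53-induced nuclear protein of the stress and autophagy response and was slightly lower, with 8.39 and 5.48 FPKM in 5-FU recipients against 9.94 and 8.87 FPKM in control recipients. Its log2 fold change was −0.41 (SE 0.29, limma adjusted p = 0.36), and the 5-FU pair was wider apart than the nearest libraries of both groups. Leaving out 5-FU replicate 1 gave −0.68, leaving out 5-FU replicate 2 gave −0.15, and it did not pass with any 1 library left out.

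**Figure D3:**
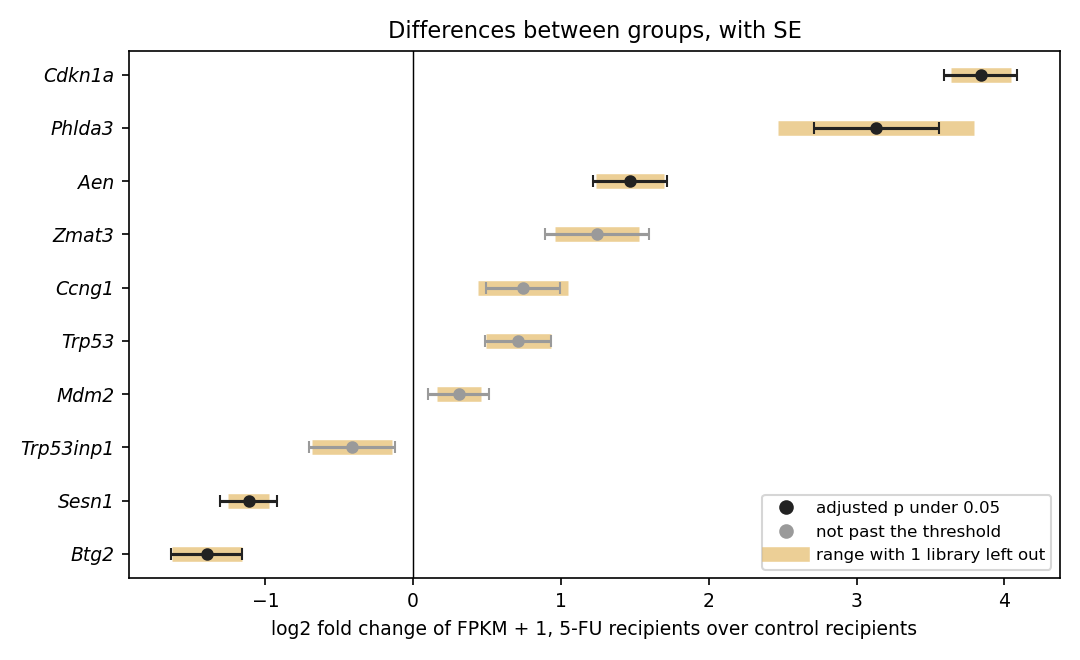
Log2 fold change of FPKM + 1 (5-FU over control recipients) with its SE for each gene; black points passed an adjusted p of 0.05, grey points did not, and yellow bars span the values with any 1 library left out. Cdkn1a (3.84) and Phlda3 (3.13) stand apart from the other genes, and Sesn1 (−1.11) and Btg2 (−1.40) lie below 0.

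How many reads stand behind a value could be worked out for 5 of the genes. Among low genes the values stepped by whole reads, and 1 read was worth 1.07 in 5-FU recipient 1, 1.31 in control recipient 1 and 1.26 in control recipient 2 times its worth in 5-FU recipient 2. Dividing by these worths gave whole numbers, within a tolerance of 0.005 reads, for Phlda3, Zmat3, Mdm2, Ccng1 and Btg2. Phlda3 rested on 147 and 151 reads in 5-FU recipients and on 4 and 18 reads in control recipients. The 95% exact Poisson intervals of the control values were 0.225 to 2.12 FPKM and 2.12 to 5.66 FPKM. Their facing ends are equal only as rounded here. Zmat3 rested on 207 and 173 reads in 5-FU recipients and on 14 and 51 reads in control recipients, with intervals of 0.132 to 0.404 and 0.628 to 1.11 FPKM in the controls. The control intervals of Zmat3 do not overlap each other, which describes these 2 recipients and says nothing about the groups. For Mdm2 there were 1122 and 1115 reads in 5-FU recipients and 791 and 665 in control recipients, and for Btg2 there were 348 and 366 in 5-FU recipients and 923 and 685 in control recipients. These numbers are the smallest whole ones that fit, reads may include PCR copies, and the intervals cover counting error alone.

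**Figure D4:**
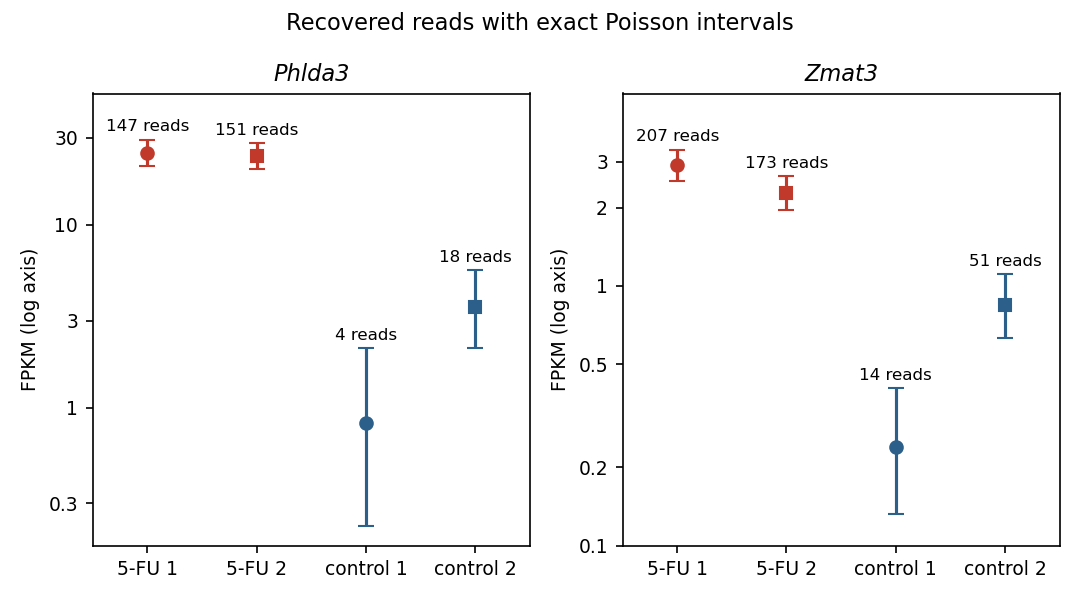
FPKM of Phlda3 (left) and Zmat3 (right) on log axes in 5-FU recipients (red) and control recipients (blue), with 95% exact Poisson intervals (bars) and the recovered reads above each point. Control recipient 1 is lowest in both panels, at 4 reads for Phlda3 and 14 reads for Zmat3, and no 5-FU interval meets a control interval.

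The wider set of p53 targets was called about as often as all tested genes. Of 43 other targets in lists for apoptosis, for repair and metabolism and for other functions, 38 were tested, 4 rose, 1 fell and 33 did not pass, and the 5 calls of 38 are near the 12.9% of all tested genes. Their median log2 fold change was 0.01, against −0.01 over all tested genes. The 4 that rose were Psrc1, a spindle protein gene, with 17.6 and 16.1 FPKM in 5-FU recipients against 3.90 and 5.14 FPKM in control recipients, Gtse1 and Ckap2, which act in G2 and mitosis, and Rps27l, a ribosomal protein paralog. Rps27l had 734.4 and 973.9 FPKM in 5-FU recipients against 353.0 and 323.0 FPKM in control recipients, but it can share reads with its near-identical relative Rps27, so its value is uncertain. The gene that fell was Pltp, a phospholipid transfer protein, at −0.90.

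Aen, described above as enhancing apoptosis, passed the test but is not on the list of apoptosis targets. None of the 11 tested genes of that list passed, at a median of 0.14. Bax, which permeabilises mitochondria, had 269.3 and 137.1 FPKM in 5-FU recipients against 64.8 and 118.4 FPKM in control recipients (log2 fold change 1.12, SE 0.38, limma adjusted p = 0.087), and both pairs were wide. Bbc3, which encodes PUMA, had 3.62 and 2.87 FPKM in 5-FU recipients against 2.13 and 3.12 FPKM in control recipients, with overlap. Pmaip1, which encodes NOXA, had 12.6 and 11.7 FPKM in 5-FU recipients against 7.29 and 10.3 FPKM in control recipients and did not pass (adjusted p = 0.30 in limma). In the repair and metabolism list 1 of 14 passed, and Gadd45a, an arrest and repair gene, had 6.09 and 11.2 FPKM in 5-FU recipients against 17.0 and 20.2 FPKM in control recipients (log2 fold change −1.07, adjusted p = 0.060 in limma). Bax, Bbc3, Pmaip1 and Gadd45a were picked after their values were seen.

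Among 19 regulators of p53, 16 were tested, of which 2 rose (Chek1 and Rpl5), 14 did not pass and none fell. Over all tested genes, 8.23% were called higher and 12.9% in either direction, so these counts say little about the regulators. Chek1, a checkpoint kinase gene, had 10.6 and 14.2 FPKM in 5-FU recipients against 3.80 and 2.91 FPKM in control recipients. Rpl5, whose protein can bind MDM2 in ribosomal stress, had 347.4 and 521.7 FPKM in 5-FU recipients against 227.0 and 207.3 FPKM in control recipients. Mdm4, which inhibits p53 alongside MDM2, had 8.12 and 5.31 FPKM in 5-FU recipients against 10.4 and 8.32 FPKM in control recipients and did not pass (adjusted p = 0.35 in limma). Cdkn2a, whose product ARF blocks MDM2, was listed at 0 in all 4 libraries, as were the p53 relatives Trp63 and Trp73.

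Genes that p53 is known to repress through p21 and the DREAM complex stood high beside Cdkn1a. Of 16 such genes 15 rose, none fell and 1 did not pass, with a median log2 fold change of 1.97. Of all tested genes 8.23% were called higher. Ccna2, cyclin A2, had 67.0 and 77.6 FPKM in 5-FU recipients against 17.3 and 18.9 FPKM in control recipients, and Birc5, survivin, 89.0 and 123.8 FPKM in 5-FU recipients against 25.8 and 27.1 FPKM in control recipients. The list is largely one of mitotic genes, chosen with earlier results of these data known, and its members were counted, not tested as a set. A link to Cdkn1a or to the share of dividing cells was not tested.

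**Figure D5:**
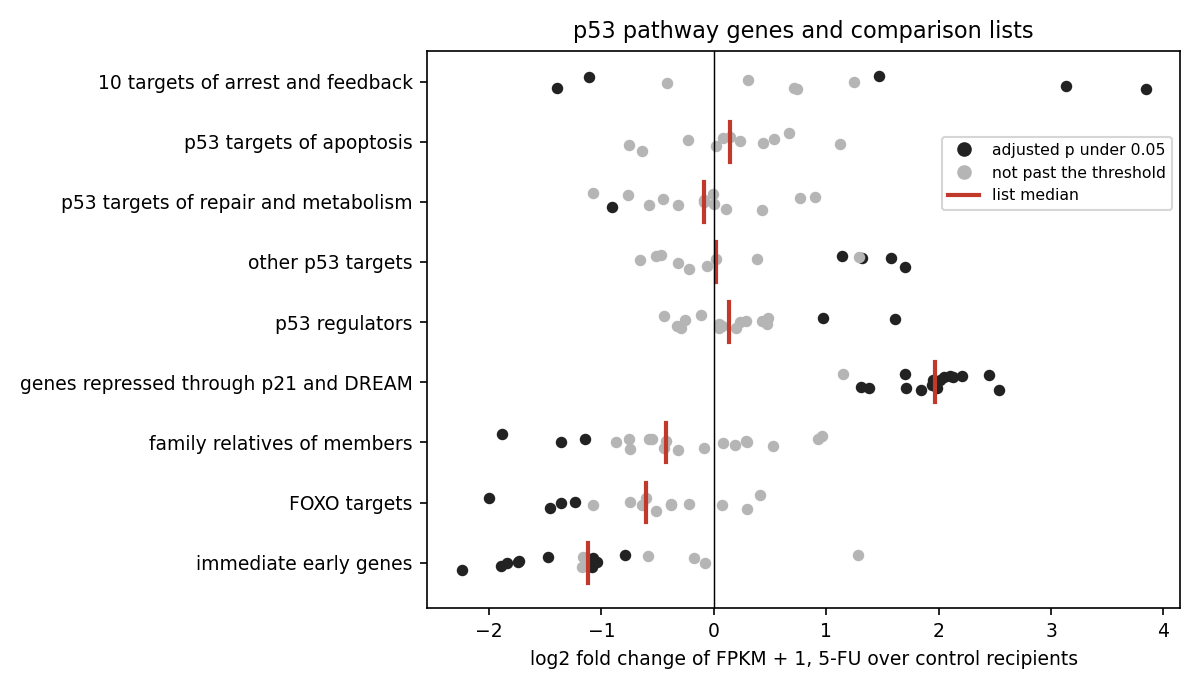
Log2 fold change of FPKM + 1 (5-FU over control recipients) for each tested gene of the 10 targets and of 8 comparison lists; black points passed an adjusted p of 0.05, grey points did not, and red lines are medians of the comparison lists. The 10 targets span −1.40 to 3.84, and the genes repressed through p21 and DREAM lie to the right with a median of 1.97.

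The calls among the closest relatives of the 10 genes were all falls. Of 23 relatives 19 were tested: Isg20, Ccng2 and Btg1 fell, 16 did not pass and none rose. Over all tested genes, 4.67% were called lower, 8.23% higher and 12.9% in either direction. Ccng2 is also on the FOXO list. Isg20, an exonuclease gene related to Aen, had 3.42 and 6.10 FPKM in 5-FU recipients against 19.1 and 20.3 FPKM in control recipients, the opposite direction to Aen. Isg20l2, another relative of Aen, had 14.0 and 22.0 FPKM in 5-FU recipients against 8.82 and 8.72 FPKM in control recipients (log2 fold change 0.92, limma adjusted p = 0.066), with both 5-FU libraries above both controls. Btg1, a relative of Btg2 that fell as it did, had 30.1 and 22.2 FPKM in 5-FU recipients against 62.9 and 54.3 FPKM in control recipients. The other CDK inhibitors of the Cdkn1a family were low, with 2.28 and 4.26 FPKM of Cdkn1b (p27) in 5-FU recipients against 6.46 and 5.53 FPKM in control recipients (adjusted p = 0.17 in limma), and 7.29 and 3.88 FPKM of Cdkn1c (p57) against 3.38 and 3.47 FPKM (adjusted p = 0.33 in limma). Phlda2, a relative of Phlda3, had 10.9 and 3.77 FPKM in 5-FU recipients against 3.45 and 2.37 FPKM in control recipients (adjusted p = 0.19 in limma). Sesn2 and Sesn3 did not pass (log2 fold changes of −0.09 and 0.29). Nor did Ccni, Tob1, Tob2, Btg3, Phlda1, Trp53inp2, Zmat1, Zmat2 and Zmat5, which ran from −0.87 in Tob1 to 0.28 in Zmat5.

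For each gene that passed, the 3 tested genes with the most similar values over the 4 libraries were looked up, by Euclidean distance between log2(FPKM + 1) values centred on their own mean. For Cdkn1a these were Snora23, Gem and Ankle1 (distances 0.846, 0.904 and 1.17). Snora23 was listed at 0 in each control recipient, so its place among the tested genes rested on the 5-FU libraries. Gem had 66.5 and 127.6 FPKM in 5-FU recipients against 5.14 and 4.64 FPKM in control recipients. For Phlda3 they were Ankle1, Aurkb and Bub1b, for Aen they were Ddx39, Stip1 and Gpatch4, for Btg2 they were S100a8, Fkbp14 and Slc16a12, and for Sesn1 they were Eif2c4, Ptger4 and Mettl7a1. Distances for Aen, Btg2 and Sesn1 ran from 0.0226 to 0.104, closer than any for Cdkn1a or Phlda3. Fkbp14 was listed at 0 in each 5-FU recipient, and Slc16a12 had 0.0873 and 0.0272 FPKM there.

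Cell type markers moved between the same groups. Of 15 macrophage markers 3 fell and 12 did not pass, and their summed level was 21110 and 10960 FPKM in 5-FU recipients against 24180 and 28310 FPKM in control recipients. For 11 granulocyte markers the sums were 3355 and 3193 FPKM in 5-FU recipients against 11770 and 9424 FPKM in control recipients. For 9 erythroid markers (8 tested) they were 59.6 and 73.8 FPKM in 5-FU recipients against 494.7 and 685.1 FPKM in control recipients. For 10 B cell markers (9 tested) they were 236.0 and 177.5 FPKM in 5-FU recipients against 443.9 and 437.6 FPKM in control recipients. In each of these 3 lists 6 markers fell and none rose. Over all tested genes, 4.67% were called lower and 8.23% higher. Of 12 LSK and progenitor markers 11 were tested, Ly6a (Sca1) rose and 10 did not pass, and the sums of all 12 overlapped at 772.0 and 1038 FPKM in 5-FU recipients against 926.0 and 844.8 FPKM in control recipients. Kit, Cd34 and Flt3 were present in every library, whereas Slamf1 stayed under 1 FPKM and was not tested; these 4 were picked after their values were seen. No marker of these 5 lists was at 0 in all libraries. The part of these cells in the differences of the 10 genes was not tested.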

How the data were processed

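RNA was measured in 4 libraries (SMART-Seq Ultra Low Input kit, 75 bp single-end reads, per the labels' protocols). The build mm10 and the tools Cuffnorm 2.2.1, TopHat2 2.0.13, SAMtools 0.1.19 and Bowtie2 2.2.3 are named in the submitters' processing notes. The values deposited by the authors are FPKM, with annotation and library normalization setting not given in the sources used here. Column headers of the 5-FU files name another day than their file names, so groups follow the labels. FPKM sums per library ran from 678222 to 762107, and total depth is unknown.

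The 11496 genes that reached 1 FPKM in 2 or more libraries were compared on log2(FPKM + 1) with limma 3.58.1 in R 4.3.3 (two-sided, moderated with a mean-variance trend, Benjamini-Hochberg adjustment over all tested genes). Residual and prior degrees of freedom were 2 and 5.62. Fold changes on this scale understate those of low genes. An exact permutation test of 2 against 2 libraries cannot go below p = 0.333 and was not used. Whether the donor cells were pooled is not stated, and p-values measure only the spread between these libraries. The code was tested on simulated data. Replicate numbers are shared by the groups but mark nothing named in the labels, so the model has no block.

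The 10 genes and the comparison lists were chosen with earlier results of these data known. Of 191 list genes 184 matched by symbol, 5 through RefSeq synonyms and 2 not at all. The text names all 10 genes, at most the 4 called genes of smallest p in each list, relatives at 1 FPKM or more in at least 2 libraries, and the nearest patterns; other names were chosen after their values were seen. Alternatives were other pseudocounts, filters, scalings and variance models, the replicate number as a block, and leaving out each library. Figures were drawn with matplotlib 3.10.9.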

Additional observations from a re-analysis of the deposited data

How the results depend on the processing

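Under 14 other settings, 139 values of the 10 fold changes were obtained, none changed sign, 125 kept their side of the threshold, 11 lost it and 3 gained it. A filter of 5 FPKM left Zmat3 untested. Without a filter on low values, 0 of the 10 genes passed in either direction, and 3 genes were called higher and 4 lower over all genes; the cause was not tested. Over all genes 946 were higher and 537 lower, and without a mean-variance trend 548 and 299, of which 3 and 2 were among the 10. With 1 library left out, 88 to 2122 genes were higher and 38 to 1876 lower, and of the 10 genes 2 to 4 were higher and 0 to 2 lower, on the assumption that a group left with 1 library varies as the other does. Leaving out either control library gave the low counts, and leaving out 5-FU replicate 1 the high ones over all genes. With the replicate number as a block 3 of the 10 were higher and 2 lower, as without it, and 855 and 539 over all genes. Deviations of same-numbered libraries correlated at −0.16 across genes, and with the numbers crossed, chosen after seeing the data, 6 and 2 of the 10 and 1686 and 1365 over all genes were called. Scaling moved the median of all genes to between −0.09 and −0.01, and no direction among the 10 genes flipped. The control values of Phlda3 rest on 4 and 18 reads, which limits their precision.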

Other observations

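Some p53 targets were low, and those given here except Trp53cor1 were too low to test. Zfp365, a p53-induced gene of genome stability, had 0.895 and 0.320 FPKM in 5-FU recipients and was listed at 0 in each control recipient. Ptprv, a p53-induced phosphatase gene, had 1.42 and 0.611 FPKM in 5-FU recipients against 0.643 and 0.128 FPKM in control recipients, and these ranges overlap. Eda2r, a p53-induced receptor gene, had 0.731 and 0.668 FPKM in 5-FU recipients, against 0.615 FPKM in control recipient 1 and a listed 0 in control recipient 2. Perp, an epithelial p53 target, had 0.126 and 1.30 FPKM in 5-FU recipients against 0.846 and 0.222 FPKM in control recipients. The long noncoding RNA Trp53cor1 (lincRNA-p21), listed in the files as Gm16197, lies near Cdkn1a and is known as a p53 target. It had 0.504 and 0.580 FPKM in 5-FU recipients against 1.42 and 1.00 FPKM in control recipients (log2 fold change −0.51, SE 0.33, limma adjusted p = 0.33), a sign opposite to that of Cdkn1a in a gene that did not pass.

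In the control pair, 5 of the 10 genes (Phlda3, Zmat3, Aen, Sesn1 and Trp53) were higher in recipient 2 than in recipient 1, and the other 5 were lower. All genes in these paragraphs were chosen after their values were seen.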
